A study of Mus musculus with 19 samples.

Results

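The cytosolic ribosome of the mouse is built from a small (40S) subunit, whose proteins are encoded by Rps genes, and a large (60S) subunit, whose proteins are encoded by Rpl genes. Genes of both subunits were taken by name, as every symbol that starts with Rps or Rpl followed by a protein number, a stalk name (Rplp0, Rplp1, Rplp2) or Rpsa. The ribosomal S6 kinases, rows named as pseudogenes and antisense names were left out, as were names with -rs or ending in rt. The rule found 90 of the 14173 genes in the table, 37 Rps and 53 Rpl. Of these, 77 are canonical ribosomal protein genes (31 Rps and 46 Rpl). The other 13 are paralogs, retrocopies and names that only resemble them, such as Rps19bp1, which encodes a protein that binds Rps19. Mitochondrial ribosomal protein genes have other names (Mrp) and are not part of the set.

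Single blastocysts were sequenced, 1 library per embryo, as 9 Padi6-mutant (numbers 2 to 10) and 10 Control embryos. Per the series' design text, the mutant embryos came from oocytes with the Padi6 change P620A, so the mutation is maternal. The labels give no strain, litter, age, embryo genotype or batch, and they name Control embryos no further. Polyadenylated RNA was captured on beads apart from the DNA, copied with a template switch, amplified by PCR and cut into libraries with Nextera XT.

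All values below are log2(scaled count + 1), unless said to be differences. Every library was scaled to the same upper quartile, so the values are relative to the other transcripts of the embryo. In single embryos, fewer cells of a type and less RNA per cell cannot be told apart. Scaled counts summed to 36.3 to 49.2 M in Control and 40.8 to 53.1 M in Padi6-mutant libraries. These sums follow the scaling, and the original depth was not used here. Genes listed at 0 numbered 30 to 247 in Control and 113 to 596 in Padi6-mutant libraries. Padi6 itself stood at 6.53 ± 1.50 (SD, n = 10) in Control and 6.49 ± 2.16 (SD, n = 9) in Padi6-mutant embryos (limma adjusted p = 0.976), and the transcript level does not check a label that names a point mutation. Of 7 trophectoderm markers 6 were in the table, with 0 higher or lower by limma, and together they took 0.46 to 0.994% of scaled counts in Control and 0.194 to 1.1% in Padi6-mutant libraries. Of 5 inner cell mass markers all 5 were in the table and Pou5f1 was lower (-1.26, limma adjusted p = 0.00158). This list took 0.0511 to 0.143% and 0.0287 to 0.0782%. Of 4 primitive endoderm markers 3 were lower, Gata6 (-0.59, adjusted p = 0.0233), Sox17 (-3.37, adjusted p = 0.0393) and Pdgfra (-2.51, adjusted p = 0.0282), and the list took 0.0198 to 0.105% and 0.0198 to 0.0305%. The part of these markers' shifts in the ribosomal protein results was not tested. Of 11 cumulus and granulosa markers only Amhr2 was listed, at most at 0.0012% of the scaled counts, and the 3 blood markers were not in the table.

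Ribosomal proteins are made in near equal amounts for each new ribosome, so their genes are usually expressed together. Many of their mRNAs begin with a run of C and T bases at the very 5′ end, the terminal oligopyrimidine (TOP) motif, through which mTORC1 and LARP1 control their translation. In the early embryo the first ribosomes come from the oocyte, and the embryo makes its own ribosomal protein mRNAs once its genome is active. Ribosomes also hold a few proteins with tissue-restricted paralogs, such as Rpl39l and Rpl10l, which are known for their roles in male germ cells.

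The annotated start sites show what the members share outside of the measured values. RefSeq (GRCm38.p6) gives start windows for 66 of the 90 members, 77 windows in all. The authors' build was a later one, so these positions were used for sequence only. A run of at least 8 C or T bases between 10 bases before and 50 bases after the start was present in 61.0% of the members' windows, against 21.2% of all 32851 windows and 2319 of the 12211 windows of genes in the table. The hexamer CTTCCG, searched on both strands of the whole 300-base window, was in 61.0% of the members' windows in 16.9% of all windows and in 31.2% of the windows of genes in the table. The matches can overlap, since the hexamer is mostly C and T. The run was present in 55.6% of canonical Rps and 70.0% of canonical Rpl windows, and the hexamer in 70.4% and 57.5%. The windows below run from 10 bases before to 20 bases after the start, 5′ to 3′ on the gene's strand, with the longest run of C and T in capitals. They are those of the members with the largest differences, of Rps10 and Rpl13a, which did not pass the test, and of the paralog pairs with the smallest p, Rps27l at the first of its 2 listed starts.
Rps27 (chr3:90213629-90213658, minus strand): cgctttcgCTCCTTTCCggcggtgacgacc
Rpl38 (chr11:114668570-114668599, plus strand): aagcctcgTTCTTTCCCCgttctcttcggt
Rpl35 (chr2:39005112-39005141, minus strand): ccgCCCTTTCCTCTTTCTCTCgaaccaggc
Rps10 (chr17:27635225-27635254, minus strand): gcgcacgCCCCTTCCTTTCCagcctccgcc
Rpl13a (chr7:45128726-45128755, minus strand): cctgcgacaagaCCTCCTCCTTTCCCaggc
Rpl36a (chrX:134585644-134585673, plus strand): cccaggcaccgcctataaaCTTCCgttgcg
Rpl36al (chr12:69184048-69184077, minus strand): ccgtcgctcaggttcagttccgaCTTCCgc
Rpl39 (chrX:37085203-37085232, minus strand): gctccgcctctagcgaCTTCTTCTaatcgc
Rpl39l (chr16:10170218-10170247, plus strand): aggCCTTTCCggatttccggtggtcgccat
Rps27l (chr9:66946076-66946105, plus strand): CCTCCCCgccgcctctatcccggaagttgc
Long runs stand both in Rps27, Rpl38 and Rpl35 and in Rps10 and Rpl13a. Of the 42 canonical members with such a run at any listed start, 39 were higher in Padi6-mutant embryos (median log2 fold change 2.17), and of the 15 without one 13 were higher (median 1.75). Canonical members without a start window are in neither group. Over all 77 canonical genes 70 (90.9%) were higher by limma, and 14.6% of all genes in the table were. The median coding length was 435 nt with a run and 471 nt without one, and the part of the run in the difference was not tested.

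Ribosomal protein transcripts of both subunits were more abundant in Padi6-mutant than in Control blastocysts. In limma, with p adjusted over all genes and a threshold of 0.05, 76 of the 90 members were higher and 0 were lower, where 14.6% of all genes were higher and 12.0% lower. At an unadjusted p under 0.05 the count lower was also 0. The median log2 fold change (Padi6-mutant minus Control) was 2.15 over the members and -0.10 over all genes. In 31 members every Padi6-mutant embryo lay above every Control embryo, which held for 2.67% of all genes. In 0 members did every Padi6-mutant embryo lie below every Control embryo (0.289% of all genes). All 90 members were above 0 in every library, and 83 lay above the table's median level. No filter was added for these counts, but the deposited values held no gene above 0 in fewer than 9 libraries. A ribosomal protein gene absent from them could not be counted. The canonical genes gave 70 higher of 77 (median 2.22), and the other matched names 6 of 13 (median 0.92).

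**Figure D1:**
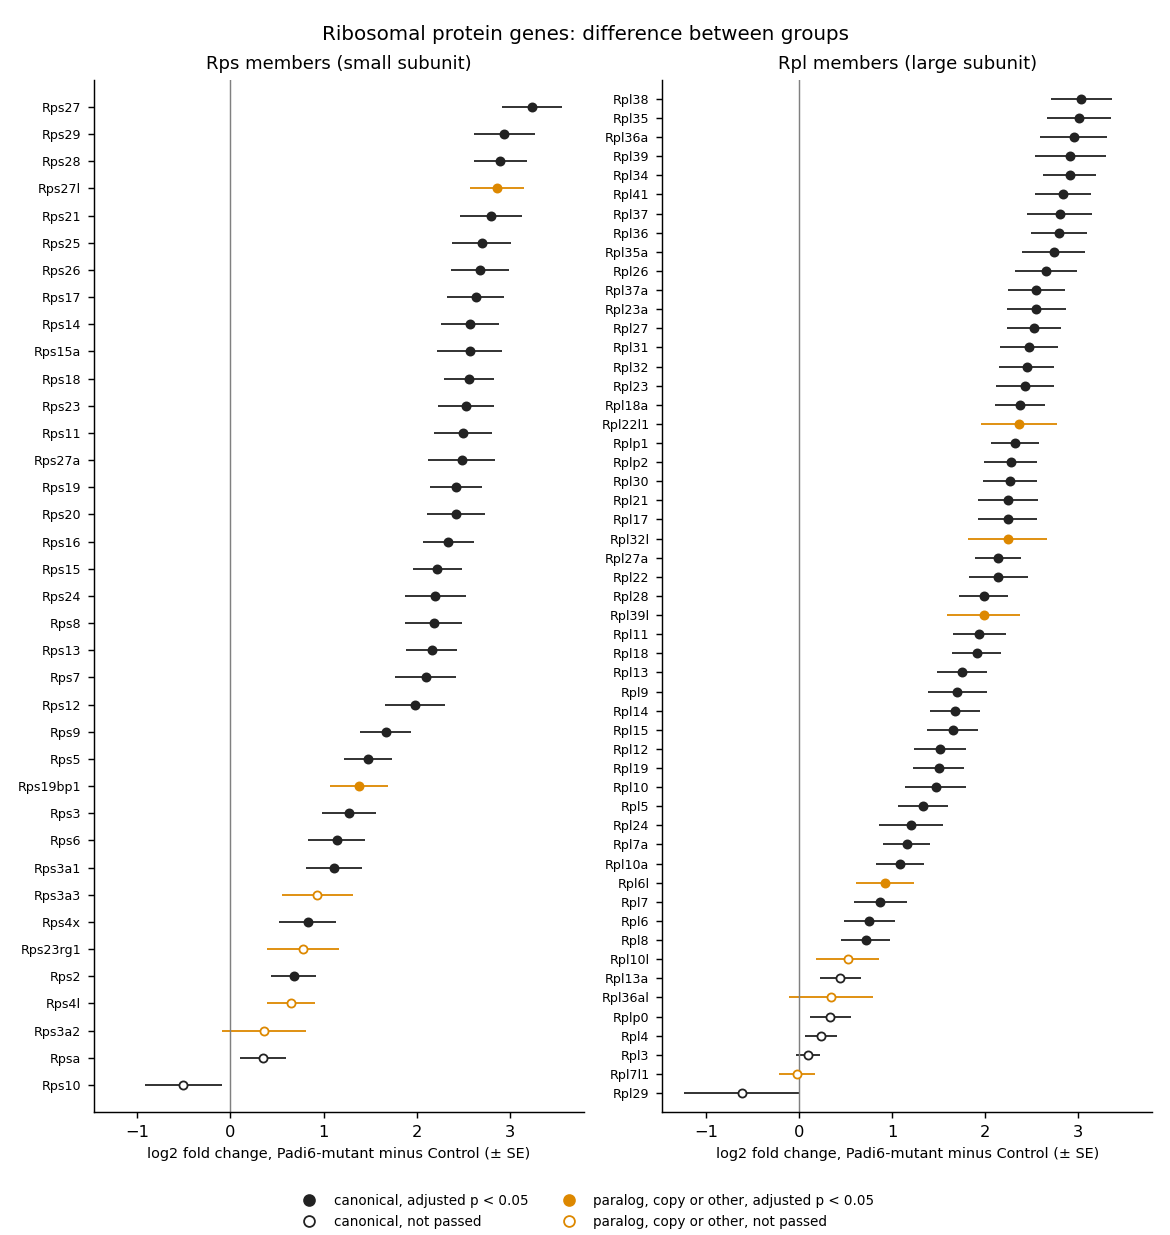
Log2 fold change (Padi6-mutant minus Control) of each of the 90 members, Rps on the left and Rpl on the right, with the standard error from limma as a bar and filled points for an adjusted p under 0.05. The differences run from -0.61 (Rpl29) to 3.24 (Rps27), and 76 points are filled, all to the right of 0.

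The small-subunit protein gene with the largest difference was Rps27, which encodes a zinc finger protein of the 40S body. Its values lay between 10.96 and 13.75 in Control embryos (median 12.14) and between 14.30 and 16.19 in Padi6-mutant embryos (median 15.67). No Padi6-mutant embryo overlapped with a Control embryo, and the difference was 3.24 (SE 0.32, limma adjusted p = 1.84e-07), or 9.44-fold. Rps29, a zinc-binding protein of the 40S head, spanned 11.23 to 13.71 in Control and 13.81 to 16.45 in Padi6-mutant embryos, again with no overlap. Its difference was 2.94 (SE 0.33, adjusted p = 8.97e-07). Rps28, which lies at the mRNA exit of the 40S head, differed by 2.90 (SE 0.28, adjusted p = 1.74e-07). Rps21 was higher by 2.80 (SE 0.34, adjusted p = 1.97e-06), without overlap. Rps14, a 40S platform protein, had one of the highest small-subunit levels in both groups, at 14.10 ± 0.94 (SD, n = 10) and 16.67 ± 0.43 (SD, n = 9), and rose by 2.57 (SE 0.31, adjusted p = 2.24e-06). Rps27a, made as a fusion with ubiquitin, rose by 2.48 (SE 0.36, adjusted p = 1.98e-05), while Control and Padi6-mutant embryos overlapped between 15.37 and 15.75.

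Among the large-subunit genes, Rpl38 and Rpl35 differed most. Rpl38, a small protein near the exit tunnel that is known for its part in the translation of Hox mRNAs, lay between 10.17 and 12.62 in Control embryos (median 11.12) and between 13.10 and 15.27 in Padi6-mutant embryos (median 14.45). The groups did not overlap, and the difference was 3.03 (SE 0.33, adjusted p = 5.90e-07). Rpl35 was at 9.94 to 12.91 in Control and 13.33 to 15.28 in Padi6-mutant embryos, a difference of 3.00 (SE 0.34, adjusted p = 1.26e-06), without overlap. Its annotation overlaps that of Wdr38, so the reads of both genes may not be separated. Rpl36a (2.95, SE 0.36) and Rpl34 (2.91, SE 0.28) did not overlap between the groups either, with adjusted p of 2.39e-06 and 1.79e-07. Rpl39 was higher by 2.91 (SE 0.38, adjusted p = 6.41e-06), and its lowest Padi6-mutant embryo, at 13.54, lay below its highest Control embryo, at 13.84.

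The structural groups of the ribosome gave the following counts of genes past the limma threshold. For comparison, 70 of the 77 canonical genes (90.9%) and 14.6% of all genes were higher. In the 40S head 13 of 14 genes were higher (median 2.42), the exception being Rps10, and in the 40S body 16 of 17 (median 2.18), the exception being Rpsa. Around the exit tunnel, where the new protein leaves the 60S subunit, 9 of 9 were higher (median 2.55), from Rpl19 at 1.50 to Rpl38 at 3.03. Both proteins that carry the 5S ribosomal RNA into the large subunit, and that bind MDM2 when left over, were higher, Rpl5 by 1.33 (SE 0.27, adjusted p = 8.21e-04) and Rpl11 by 1.94 (SE 0.29, adjusted p = 2.76e-05). Rpl11 lay at 12.38 to 14.78 in Control and 14.49 to 15.85 in Padi6-mutant embryos, so the groups overlapped slightly.

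The acidic stalk, which recruits the elongation factors, was not even. Its small proteins were higher, Rplp1 by 2.32 (SE 0.26, adjusted p = 8.63e-07) and Rplp2 by 2.27 (SE 0.29, adjusted p = 3.60e-06), both with no overlap between the groups. Rplp0, the larger protein on which they sit, stood at 15.33 ± 0.62 (SD, n = 10) in Control and 15.67 ± 0.27 (SD, n = 9) in Padi6-mutant embryos. Its difference of 0.34 (SE 0.22) did not pass (adjusted p = 0.265). Within the stalk, the coding length was 342 nt for Rplp1, 345 nt for Rplp2 and 951 nt for Rplp0.

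Ribosomal proteins whose names fall outside the rule were not even either. Fau, which encodes Rps30 fused to a ubiquitin-like protein, was higher by 2.52 (SE 0.27, limma adjusted p = 6.65e-07). Rack1, a scaffold protein of the 40S head, differed by 0.44 (SE 0.22, adjusted p = 0.134) and did not pass the test.

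Of the 90 members, 14 did not pass, and 7 of them were canonical. Rpl3 and Rpl4, long proteins of the 60S core, had high and even levels. Rpl3 stood at 15.14 to 15.62 in Control (median 15.38) and at 15.15 to 15.77 in Padi6-mutant embryos (median 15.61), a difference of 0.10 (SE 0.13, adjusted p = 0.618). With an SD of 0.17 in Control embryos, it varied far less than the members' median SD of 0.82. Rpl4 differed by 0.23 (SE 0.17, adjusted p = 0.319), Rpsa, also known as the laminin receptor, by 0.35 (SE 0.25, adjusted p = 0.315), and Rpl13a by 0.44 (SE 0.22, adjusted p = 0.137).

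Rpl29 and Rps10 had the lowest differences. Rpl29, a basic protein of the 60S surface, lay between 11.16 and 13.77 in Control embryos (median 12.61). In Padi6-mutant embryos it lay between 9.41 and 14.12 (median 13.07), with no value between 10.37 and 13.07. Padi6-mutant 4, 7, 8 and 9 were at 10.37, 9.89, 9.69 and 9.41, below every Control embryo. Padi6-mutant 2, 3, 5, 6 and 10 were at 13.81, 14.12, 13.52, 13.77 and 13.07, each above the Control median. The SD was 2.05 in Padi6-mutant against 0.89 in Control embryos, and the mean difference of -0.61 (SE 0.62) did not pass (adjusted p = 0.489). Rps10, a protein of the 40S head beak, was among the canonical genes with the lowest levels, at 7.15 ± 0.77 (SD, n = 10) and 6.65 ± 0.90 (SD, n = 9), and differed by -0.51 (SE 0.42, adjusted p = 0.389). The other low canonical genes were Rpl24, at 6.26 and 7.47 in the means of Control and Padi6-mutant embryos, Rpl13a, at 10.39 and 10.84, and Rpl23a, at 10.51 and 13.06. Rpl24 and Rpl23a also overlap other coding genes in the annotation (Zbtb11 and Tlcd1).

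Some members just past the threshold were long ones. Rps2, which lies at the mRNA entry of the 40S subunit, was higher by 0.68 (SE 0.24, adjusted p = 0.0398), Rps4x, the X-linked copy of a 40S body protein, by 0.83 (SE 0.31, adjusted p = 0.0473), and Rpl7 by 0.87 (SE 0.28, adjusted p = 0.0259). In each, the Padi6-mutant embryos lay above the Control median in 9 of 9 cases, but 8 of 9 for Rps2, 8 of 9 for Rps4x and 7 of 9 for Rpl7 were no higher than the highest Control embryo. Leaving out Padi6-mutant 6, 8, 9 and 10, where over 400 genes were at 0, ended the call of each (limma adjusted p = 0.059, 0.0646 and 0.0568), although the differences grew to 0.84, 1.03 and 0.94. With each library's trend on length and GC of the transcript removed, the differences were 0.16 (adjusted p = 0.392), -0.0053 (adjusted p = 0.989) and 0.23 (adjusted p = 0.378). Leaving out 1 library also ended the call of Rps2 for 10 of the 19 libraries (Control 1, 3, 4, 8 and 10, Padi6-mutant 2 to 6; adjusted p up to 0.0777). For Rps4x this held for 14 libraries (Control 1, 2, 3, 4, 7, 8 and 10, Padi6-mutant 2 to 8; up to 0.0881), and for Rpl7 for 3 (Control 1 and 3, Padi6-mutant 2; up to 0.053). Rps3a1, another 40S protein, was higher by 1.11 (SE 0.31, adjusted p = 0.00948), and by 0.27 (adjusted p = 0.308) with that trend removed.

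The size of the difference went with the length of the coding sequence. Over the 77 canonical genes, Spearman's rho of the log2 fold change with coding length was -0.867, and with transcript length -0.609. These are descriptions across genes that share the same libraries, and genes are not independent replicates. Canonical Rps genes with a coding length under 500 nt were higher in 20 of 21 cases (median 2.53), and Rpl genes of that length in 25 of 26 (median 2.50). From 500 nt on, 9 of 10 Rps (median 1.21) and 16 of 20 Rpl genes (median 1.40) were higher. The exceptions among the short ones were Rps10 and Rpl29.

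**Figure D2:**
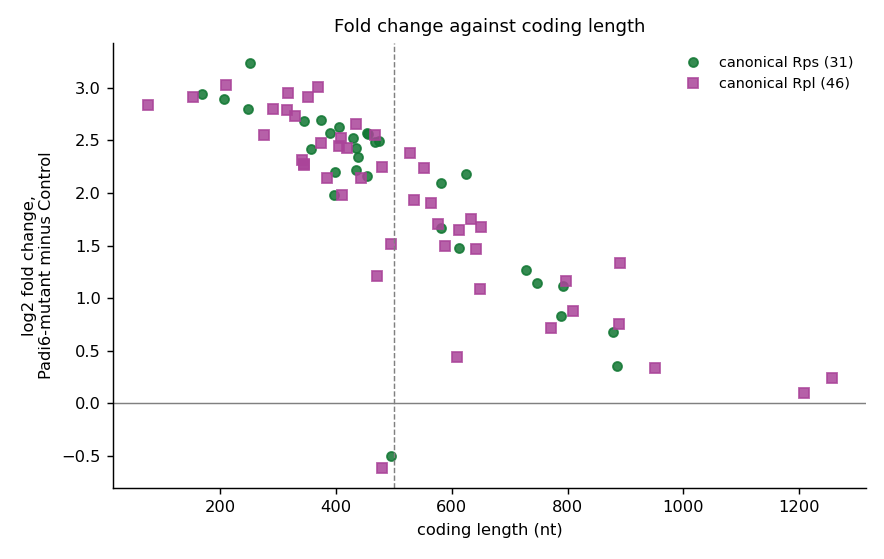
Log2 fold change (Padi6-mutant minus Control) of the 77 canonical genes against coding length in nt, circles for Rps and squares for Rpl, with a dashed line at 500 nt. The points fall from about 3 at the shortest genes to 0.10 and 0.23 at Rpl3 and Rpl4, the longest, and both subunits lie along the same band.

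Short transcripts that do not encode ribosomal proteins moved too. Of 1872 other genes with a transcript under 1000 nt, 861 (46.0%) were higher and 34 (1.82%) lower, with a median of 1.01. Of the 70 members under 1000 nt, 64 were higher with a median of 2.24. The median deviation of the other short genes from their gene means was -1.19 to 0.41 in Control and 0.34 to 0.90 in Padi6-mutant libraries. With the trend of each library on transcript length and GC content removed, 59 members were higher and 3 lower (Rps10, Rpl29 and Rpl36al), with a median of 1.02, where 10.6% of 13636 genes were higher and 10.3% lower. The call was lost for 17 of the 76, among them Rpl24, which went from 1.21 (adjusted p = 0.012) to -0.0067 (adjusted p = 0.99). Rps27 then stood at 1.56 (adjusted p = 2.03e-07) and Rpl38 at 1.54 (adjusted p = 9.00e-06). The trend removed was that on transcript length, not coding length. Canonical genes with a coding length under 500 nt were then higher in 19 of 21 Rps (median 1.29) and 24 of 26 Rpl cases (median 1.21). From 500 nt on, 5 of 10 Rps (median 0.52) and 10 of 20 Rpl genes (median 0.44) were higher. Rps20, listed at 3706 nt with a coding length of 357 nt, stood at 2.42 before and after. Length is a property of the gene and its part in the difference, beyond this removal, was not tested. Rows named as ribosomal pseudogenes, outside the rule, gave 83 of 107 higher and 0 lower (median 2.08), and with the trend removed 31 of 104 higher and 0 lower (median 0.62). For 46 members such rows carry the member's own name, and the authors' treatment of reads that fit several copies is not given in the sources used here, so a part of each such value may belong to a copy.

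The subunits put the embryos in nearly the same order. The mean over canonical Rps genes was 13.16 ± 0.74 (SD, n = 10; 12.18 to 14.48) in Control and 15.19 ± 0.51 (SD, n = 9; 14.39 to 15.88) in Padi6-mutant embryos. For canonical Rpl genes it was 13.00 ± 0.72 (12.05 to 14.27) and 14.87 ± 0.52 (14.14 to 15.57). Control 9 and Control 5 had the highest Control means, and Padi6-mutant 10 and 9 the lowest Padi6-mutant means. In the Rps mean only Control 9 (14.48) overlapped with the Padi6-mutant range, through Padi6-mutant 10 (14.39). Control 5 and 9 were also the Control libraries with the highest deviation of the other short genes, 0.33 and 0.41, and the part of this in their ribosomal protein level was not tested. The 90 members together took 2.88 ± 1.22% of the scaled counts in Control (1.56 to 5.25%) and 8.02 ± 2.02% in Padi6-mutant embryos (4.96 to 10.3%).

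**Figure D3:**
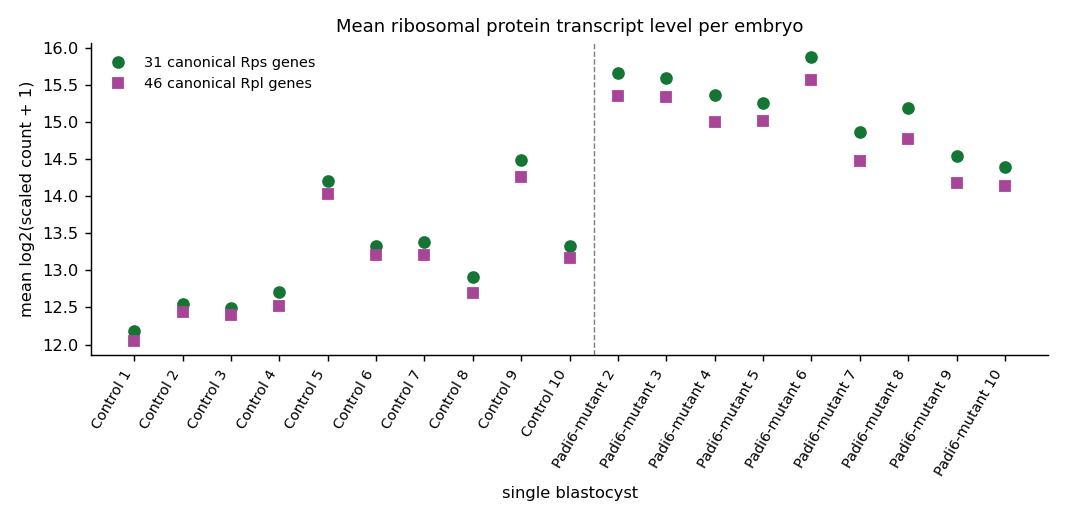
Mean log2(scaled count + 1) of 31 canonical Rps genes (circles) and 46 canonical Rpl genes (squares) in each of the 19 blastocysts. The Rps mean lies above the Rpl mean in every embryo, and Control 5 and 9 reach into or close to the range of Padi6-mutant 9 and 10.

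The small-subunit genes differed slightly more than the large-subunit genes. The median log2 fold change was 2.20 over the Rps and 1.98 over the Rpl members, 0.20 apart, and 31 of 37 Rps and 45 of 53 Rpl members were higher. In canonical genes the medians were 2.34 (29 of 31 higher) and 2.14 (41 of 46 higher), where 14.6% of all genes were higher. Within each embryo, the Rps mean exceeded the Rpl mean by 0.16 ± 0.04 (SD, n = 10; 0.10 to 0.22) in Control and by 0.32 ± 0.06 (SD, n = 9; 0.24 to 0.41) in Padi6-mutant embryos. All 9 Padi6-mutant embryos lay above all 10 Control embryos. The median coding length was 453 nt in canonical Rps and 475.5 nt in canonical Rpl genes, and the part of length in this gap was not tested. In genes under 500 nt the excess of Rps was 0.43 ± 0.04 in Control and 0.48 ± 0.12 in Padi6-mutant embryos, with 4 Padi6-mutant embryos above every Control embryo. These were Padi6-mutant 4, 7, 8 and 9, the embryos with low Rpl29, which is among the 26 short Rpl genes. Without Rpl29 the excess in short genes was 0.45 ± 0.05 in Control and 0.38 ± 0.06 in Padi6-mutant embryos, with 0 above every Control embryo. Over the other 76 canonical genes it was 0.15 ± 0.04 and 0.26 ± 0.03, with 8 of 9 Padi6-mutant embryos above every Control embryo. In genes of 500 nt or more it was 0.31 ± 0.10 and 0.33 ± 0.06, with 0 Padi6-mutant embryos above every Control embryo. These means are given as values, without a test.

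**Figure D4:**
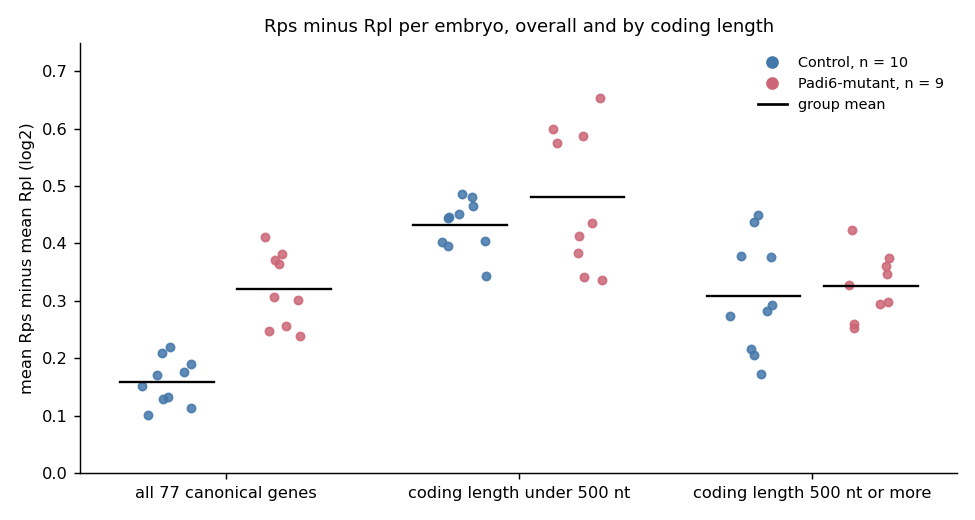
Mean of canonical Rps minus mean of canonical Rpl genes (log2) in each embryo, over all 77 genes, over those with a coding length under 500 nt and over those of 500 nt or more, with bars at the group means. The groups are apart over all 77 genes (means 0.16 and 0.32) and overlap within each length class, where Padi6-mutant 4, 7, 8 and 9 are the 4 high points of the short class.

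Compared per kb of transcript, the order of the genes differed between the groups. In Control embryos the highest log2 levels per kb were those of Rps2 (15.59), Rpl4 (15.51), Rpl10 (15.05), Rpl3 (14.96) and Rpl7 (14.94). These neighbours lay closer to each other than the SD of Rps2 (0.67) or Rpl10 (0.96). In Padi6-mutant embryos Rps2 (16.27) was at rank 21 of 90, Rpl4 (15.75) at rank 40 and Rpl3 (15.06) at rank 62. The first 6 there were Rpl41 (17.45), Rps14 (17.42), Rps18 (17.14), Rps27 (16.98), Rps27a (16.93) and Rplp1 (16.72). Their ranks in Control embryos were 13, 7, 16, 37, 20 and 21.

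Paralogs were compared with their canonical gene inside each embryo, as the log2 difference paralog minus canonical. Of 8 candidate pairs 7 had both genes in the table. The test was an exact permutation of the 19 embryos (92378 splits, two-sided), with Benjamini-Hochberg adjustment over the 7 pairs. In 5 pairs the balance differed between the groups, each time towards the canonical gene in Padi6-mutant embryos. The annotated transcripts of no pair share a stretch of 75 nt, the read length, and the longest shared stretches were 11 to 38 nt.

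Rpl36al, an autosomal copy of the X-linked Rpl36a, gave the widest shift. Rpl36al itself was at 5.09 to 7.64 in Control and 5.25 to 8.01 in Padi6-mutant embryos and did not pass (difference 0.34, SE 0.45, limma adjusted p = 0.607). Rpl36a was at 10.78 to 13.73 and 13.85 to 15.64. Rpl36al minus Rpl36a lay at -6.67 to -4.44 in Control and at -9.23 to -7.28 in Padi6-mutant embryos, with no overlap. The means were -5.44 ± 0.68 (SD, n = 10) and -8.05 ± 0.61 (SD, n = 9), -2.61 apart (exact permutation p = 1.08e-05, the smallest these splits can give; adjusted p = 7.58e-05). Coding length was 318 nt in both genes.

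Rpl39l and Rpl39 were both higher in Padi6-mutant embryos, Rpl39l by less. Rpl39l, whose protein forms part of the exit tunnel in spermatids, was higher by 1.98 (SE 0.39, limma adjusted p = 6.67e-04), at 10.03 to 13.04 in Control and 11.77 to 14.27 in Padi6-mutant embryos. With the length and GC trend removed this call was lost (0.44, adjusted p = 0.174). Its difference from Rpl39 was -0.76 ± 0.36 in Control and -1.69 ± 0.43 in Padi6-mutant embryos, -0.93 apart (exact permutation p = 1.95e-04, adjusted p = 6.82e-04). All 9 Padi6-mutant embryos were below the Control median, and the ranges overlapped. Coding length was again the same, 153 nt.

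Rps27l, a relative of Rps27 known as a target of p53, was the only paralog with a level above its partner in most embryos. It rose from 12.82 ± 0.85 (SD, n = 10) to 15.68 ± 0.42 (SD, n = 9), by 2.86 (SE 0.29, limma adjusted p = 2.31e-07), with no overlap. Rps27l minus Rps27 was 0.61 ± 0.19 in Control and 0.24 ± 0.31 in Padi6-mutant embryos (exact permutation p = 0.00409, adjusted p = 0.00955). It was above 0 in every embryo but Padi6-mutant 8, at -0.35. Per kb of transcript the Control levels of this pair were nearly equal, at 13.82 for Rps27l and 13.74 for Rps27.

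Rpl7l1, whose product acts in the assembly of the large subunit, did not pass by itself (difference -0.02, SE 0.20, limma adjusted p = 0.947). Rpl7l1 minus Rpl7 was -2.44 ± 0.81 in Control and -3.34 ± 0.31 in Padi6-mutant embryos, -0.90 apart (exact permutation p = 0.00705, adjusted p = 0.0123). Rpl10l, an intronless copy of the X-linked Rpl10 that is needed in male meiosis, differed by 0.52 (SE 0.34, limma adjusted p = 0.262), while Rpl10 rose by 1.47 (SE 0.33, adjusted p = 0.00184). With the length and GC trend removed the call of Rpl10 was lost (0.44, limma adjusted p = 0.117). Rpl10l minus Rpl10 was -4.27 ± 0.99 and -5.22 ± 0.51, -0.95 apart (exact permutation p = 0.0213, adjusted p = 0.0298). Without Padi6-mutant 6, 8, 9 and 10 the call of the first pair was lost (exact permutation, adjusted p = 0.114). The call of Rpl10l minus Rpl10 was lost there too (adjusted p = 0.118), and without Control 2, 7 or 8 or Padi6-mutant 8 in turn (adjusted p up to 0.0618), and with the length and GC trend removed (-0.58, adjusted p = 0.175).

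The remaining pairs gave no call. Rpl22l1 minus Rpl22 was -1.45 ± 0.49 in Control and -1.23 ± 0.51 in Padi6-mutant embryos, 0.22 apart (exact permutation p = 0.341, adjusted p = 0.398). Both genes rose, Rpl22 by 2.14 (SE 0.32, limma adjusted p = 3.02e-05) and Rpl22l1 by 2.36 (SE 0.40, adjusted p = 1.45e-04), the latter by 0.71 (adjusted p = 0.0531) with the length and GC trend removed. Rps4l minus Rps4x was -1.08 ± 0.60 and -1.26 ± 0.32, -0.18 apart (exact permutation p = 0.431, adjusted p = 0.431). Rps4l is listed by RefSeq as a transcribed pseudogene, overlaps Tmtc1, and had a high level of 13.42 in Control and 14.07 in Padi6-mutant embryos (difference 0.65, SE 0.26, limma adjusted p = 0.0637). It passed without Control 6, 7 or 9 in turn (adjusted p from 0.0252 to 0.0456).

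**Figure D5:**
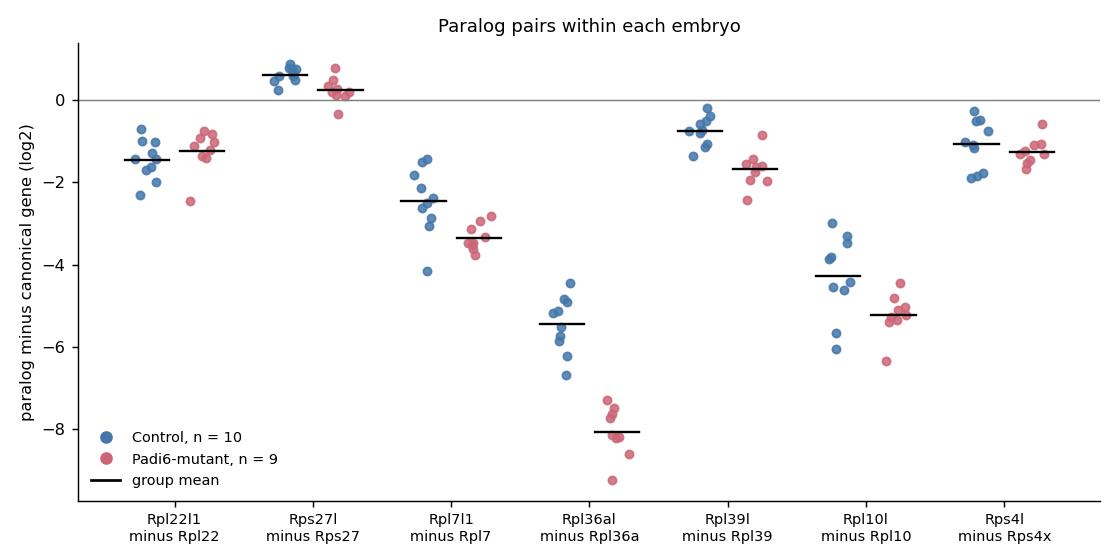
Log2 level of the paralog minus that of its canonical gene in each of 10 Control and 9 Padi6-mutant embryos for 7 pairs, with bars at the group means. Rpl36al minus Rpl36a separates the groups with means of -5.44 and -8.05, and the other pairs overlap.

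The remaining matched names were low or mixed. Rps3a2 (0.36, SE 0.45, limma adjusted p = 0.585), Rps3a3 (0.93, SE 0.38, adjusted p = 0.0746) and Rps23rg1 (0.78, SE 0.39, adjusted p = 0.145), copies of Rps3a1 and Rps23, did not pass. Rps3a3 passed without Control 5 (limma adjusted p = 0.0386) or Control 9 (adjusted p = 0.0274), and Rps23rg1 without Control 9 (adjusted p = 0.0367). Rps19bp1 (1.38, SE 0.32, adjusted p = 0.0024) and Rpl32l (2.24, SE 0.43, adjusted p = 4.72e-04) were higher, and neither passed with the length and GC trend removed (0.62, limma adjusted p = 0.0516, and 0.67, adjusted p = 0.167).

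Lists of genes that act on ribosomes without being part of them are read against 14.6% higher and 12.0% lower over all genes. Of 35 small-subunit assembly factors 3 were higher and 8 lower (median -0.21), or 2 and 4 with the length and GC trend removed. Tsr1, a GTPase-like factor of late 40S maturation, was lower by 0.87 (limma adjusted p = 9.55e-04), and Nat10, the acetyltransferase of 18S rRNA, by 0.72 (adjusted p = 0.0015). Mphosph10, a part of the U3 particle, was higher by 0.81 (SE 0.21, adjusted p = 0.00572). Of 38 large-subunit factors 4 were higher and 7 lower (median -0.08), or 2 and 6 with the trend removed, with Nsa2 higher by 1.57 (SE 0.28, adjusted p = 2.31e-04), the helicase Ddx54 at -1.68 (adjusted p = 0.0017) and the methyltransferase Nop2 at -0.84 (adjusted p = 0.00315).

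In the core of the snoRNPs, which modify ribosomal RNA, 3 of 8 were higher and 0 lower, also with the trend removed. They were Nop10 (2.47, SE 0.30, limma adjusted p = 2.77e-06), Nhp2 (1.77, SE 0.35, adjusted p = 5.62e-04) and Snu13 (1.09, SE 0.27, adjusted p = 0.00406). Of 18 regulators of TOP mRNAs and mTORC1, 1 was higher and 6 lower, or 1 and 2 with the trend removed. Rptor, the mTORC1 scaffold, differed by -0.95 (adjusted p = 0.00219), Larp1, which binds the TOP motif, by -0.67 (adjusted p = 0.00511), and the S6 kinase gene Rps6kb2 by -0.66 (adjusted p = 0.0188). Larp1 (-0.27, adjusted p = 0.299) and Rps6kb2 (-0.23, adjusted p = 0.328) did not pass with the trend removed, and Rptor stood at -0.45 (adjusted p = 0.0225). Larp4b was higher by 0.53 (limma adjusted p = 0.03), and by 0.66 (adjusted p = 1.89e-04) with the trend removed. Of the 5 measured chaperones of single ribosomal proteins, Heatr3, which serves Rpl5, was at -0.91 (adjusted p = 1.13e-04) and Pdcd2l at 0.58 (adjusted p = 0.0297), the latter at 0.35 (adjusted p = 0.0997) with the trend removed. The 18S rRNA took 9.55 ± 4.69% of scaled counts in Control and 4.89 ± 1.26% in Padi6-mutant libraries. It has no poly(A) tail, so its share in these libraries is no measure of ribosome content.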

How the data were processed

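Per the submitters' processing notes, Trim Galore 0.4.4 and HISAT2 2.1.0 were used with build GRCm39 (mm39). The counting tool and annotation are not given in the sources used here. The authors deposited log2 values, 1 column per embryo. Taken back from the log2 scale they lay within 1.96e-07 of whole numbers, read as scaled count plus 1, with the same upper quartile (2322) in all 19 libraries. The labels speak of 20 pooled libraries. p-values take embryos as independent, since no litter is named.

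Groups were compared with limma 3.58.1 in R 4.3.3 (lmFit, eBayes with trend, two-sided; Benjamini-Hochberg over 14173 genes, threshold 0.05), after a check on simulated data. Pairs were tested by exact permutation in Python 3.11.15. Lengths and GC came from GENCODE release M 21, found for 13636 genes (96.2%) and all 90 members (coding length for 85). The trend of each library was removed by lowess with a span of 0.3. Start sites came from RefSeq.

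Members and lists were chosen with earlier results of these data known. Named genes were every paralog pair member, the 5 largest and 5 smallest differences per subunit among genes above the median level, the 3 highest levels per kb, every member that did not pass, genes of special place (Rpsa, the stalk, Rpl5, Rpl11, Rps27a), and up to 3 genes per other list by adjusted p. Rpl24, Rpl23a, Rpl41, Rps18, Rps19bp1 and Rpl32l were named after their values were seen. Larp4b lies outside this rule and was named as the only higher gene of its list. Alternatives were a replicate block, quantile normalization, centring, a pseudocount of 16, a filter on level, library weights, detected genes as a covariate, the length and GC trend, and left-out libraries.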

Additional observations from a re-analysis of the deposited data

Results flagged for a closer look

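In 96 groups of libraries examined, 5 held an embryo farther from the others than Dixon's limit, about what chance gives (1 in 20 groups). Rps23rg1 was at 9.92 in Control 9, where the next Control embryo was at 8.34. Rpl13a was at 11.89 in Padi6-mutant 6, with the next at 11.06. Rpl22l1 was at 10.52 in Padi6-mutant 10, with the next at 12.31, and there Rpl22l1 minus Rpl22 was -2.44, with the next at -1.40. Rpl10l minus Rpl10 was -6.34 in Padi6-mutant 8, with the next at -5.39.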

How the results depend on the processing

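The number of members higher (76) was 59 to 79 over all alternatives, the lowest with the length and GC trend removed, and 70 to 79 with 1 library left out in turn. With Control 5 and 9 left out, an alternative chosen after seeing the data, it was 79. The count of members lower was 1 under quantile normalization (Rpl3 at -0.41, adjusted p = 0.0174) and 3 with the length and GC trend removed. The Rps minus Rpl median difference (0.20) was 0.11 under quantile normalization and 0.13 with library quality weights, and 0.17 to 0.24 with 1 library left out. Of the 7 pairs, 5 passed, 3 under quantile normalization and 3 without Padi6-mutant 6, 8, 9 and 10 (over 400 genes at 0), and 4 to 5 with 1 library left out.

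The labels do not say whether their numbers pair the embryos. In deviations from the group means, same-numbered embryos correlated at -0.07 to 0.15 over 9 pairs. Differently numbered embryos were not compared, so these values do not settle whether a litter or batch was shared. With a replicate block 69 members were higher (10.9% of all genes) and 4 pairs passed, Rpl10l minus Rpl10 being lost (adjusted p = 0.0711).

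With the length and GC trend removed the sign turned for Rps4l minus Rps4x (0.13), Rpl10l (-0.15), Rpl13a (-0.10), Rpl3 (-0.12), Rpl36al (-1.13), Rps3a2 (-0.77), Rps3a3 (-0.22), Rpl24 (-0.0067) and Rps4x (-0.0053). Under quantile normalization it turned for Rpl4 (-0.21), Rplp0 (-0.13) and Rpsa (-0.12). Rpl7l1 turned to 0.0006 when libraries were centred, 0.15 with detected genes as a covariate, 0.16 without those 4 libraries, and lay between -0.11 and 0.0851 with 1 library left out. Pair values under quantile normalization were -0.62 for Rpl7l1 minus Rpl7 (adjusted p = 0.0523) and -0.66 for Rpl10l minus Rpl10 (adjusted p = 0.109). The cause was not tested. Counting error weighs most on Rps10, Rpl24, Rps3a3 and Rpl36al, which had low levels.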
